A study of Rattus norvegicus with 15 samples.

Results

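The genes described here are 10 markers of liver macrophages, chosen by their symbols. Of these, 5 mark resident Kupffer cells (Clec4f, Timd4, Vsig4, Marco and Cd163), 3 mark macrophages in general (Cd68, Csf1r and Adgre1) and 2 mark the macrophages of hepatic scars (Trem2 and Gpnmb). Of the 32623 genes in the count table, 9 were matched to these markers, and all 9 passed the filter on low counts, which left 14417 genes, 13628 of them protein coding. Timd4 was not analysed here. Whole livers of age-matched male Wistar rats with a starting weight of 75 to 100 g had been sequenced with paired reads of 150 bp after enrichment of poly(A) RNA, to ask how CCl4 and the mineralocorticoid receptor antagonist eplerenone change gene expression. The control group (n = 4) was not treated. Rats of the cirrhosis group (n = 5) inhaled CCl4 for 12 weeks and drank water with phenobarbital at 0.35 g/L. The cirrhosis & eplerenone group (n = 5) had both agents and, from week 8 on, eplerenone by mouth at 100 mg per kg of body weight. Eplerenone was given in hazelnut spread, and the paper does not say whether the other groups had the spread. If they did not, the effects of eplerenone and of the spread cannot be told apart. The controls had no phenobarbital, so its effect and that of CCl4 cannot be told apart. CCl4-treated livers were taken 7 to 10 days after the last inhalation. The study chose animals for sequencing by how well induction or treatment had worked. The spread between rats is thus that of chosen animals. The choice can also widen the differences between groups, those with eplerenone included.

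Kupffer cells are the resident macrophages of the liver. They sit in the sinusoids, arise mostly from embryonic precursors, and clear bacteria, particles and aged red cells from the blood. When they are lost during injury, monocytes enter the liver, and part of them take on Kupffer cell features with time. In fibrotic livers a further macrophage state lies along the scars and is known for TREM2, GPNMB, CD9 and SPP1. Macrophages depend on the CSF1 receptor, which binds CSF1 and IL34, and TREM2, a lipid-sensing receptor, signals through the adaptors TYROBP and HCST and the kinase SYK.

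Counted reads per library ranged from 16157491 to 21574767. Levels are given as FPM, the counts of a gene per 1000000 counts of the TMM-scaled library, and 3 counts stood for 0.121 to 0.191 FPM. They were not corrected for gene length, so levels of different genes were not compared. In whole liver RNA, fewer cells of a type and less RNA per cell cannot be told apart. Among the rats with cirrhosis, 2 stood apart in these markers. Replicate 2 had the lowest level of all 14 livers in each of Clec4f, Vsig4, Marco and Cd163 and the highest of Gpnmb. Replicate 5 had the lowest Trem2 and Gpnmb of the 10 CCl4-treated rats and a Vsig4 level within the control range. For the markers, log2FC that turn on either rat are given with and without it. Correlations and coefficients of variation are given with all rats only. A gene was called when it was protein coding and its FDR was below 0.05 in both edgeR (quasi-likelihood test) and DESeq2 (Wald test). Fold changes, standard errors (SE), 95% intervals and FDR are those of edgeR unless DESeq2 is named.

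The markers of the 3 kinds did not move together. Between cirrhosis and control, both scar-associated markers rose, 1 of the 4 resident Kupffer markers that were tested fell, and none of the 3 pan-macrophage markers was called. Of all 13628 protein coding genes tested, 13.8% were called higher and 6.72% lower in this comparison, and these shares moved with single libraries, since 2802 genes were called in all, but 1317 without control replicate 5 and 4415 without cirrhosis replicate 5. Between cirrhosis & eplerenone and control, both scar-associated markers rose and no other marker was called, against a background of 4.5% called higher and 0.829% called lower. Between cirrhosis & eplerenone and cirrhosis, none of the 9 was called, as were few genes at all (0.0147% higher and 0% lower).

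**Figure D1:**
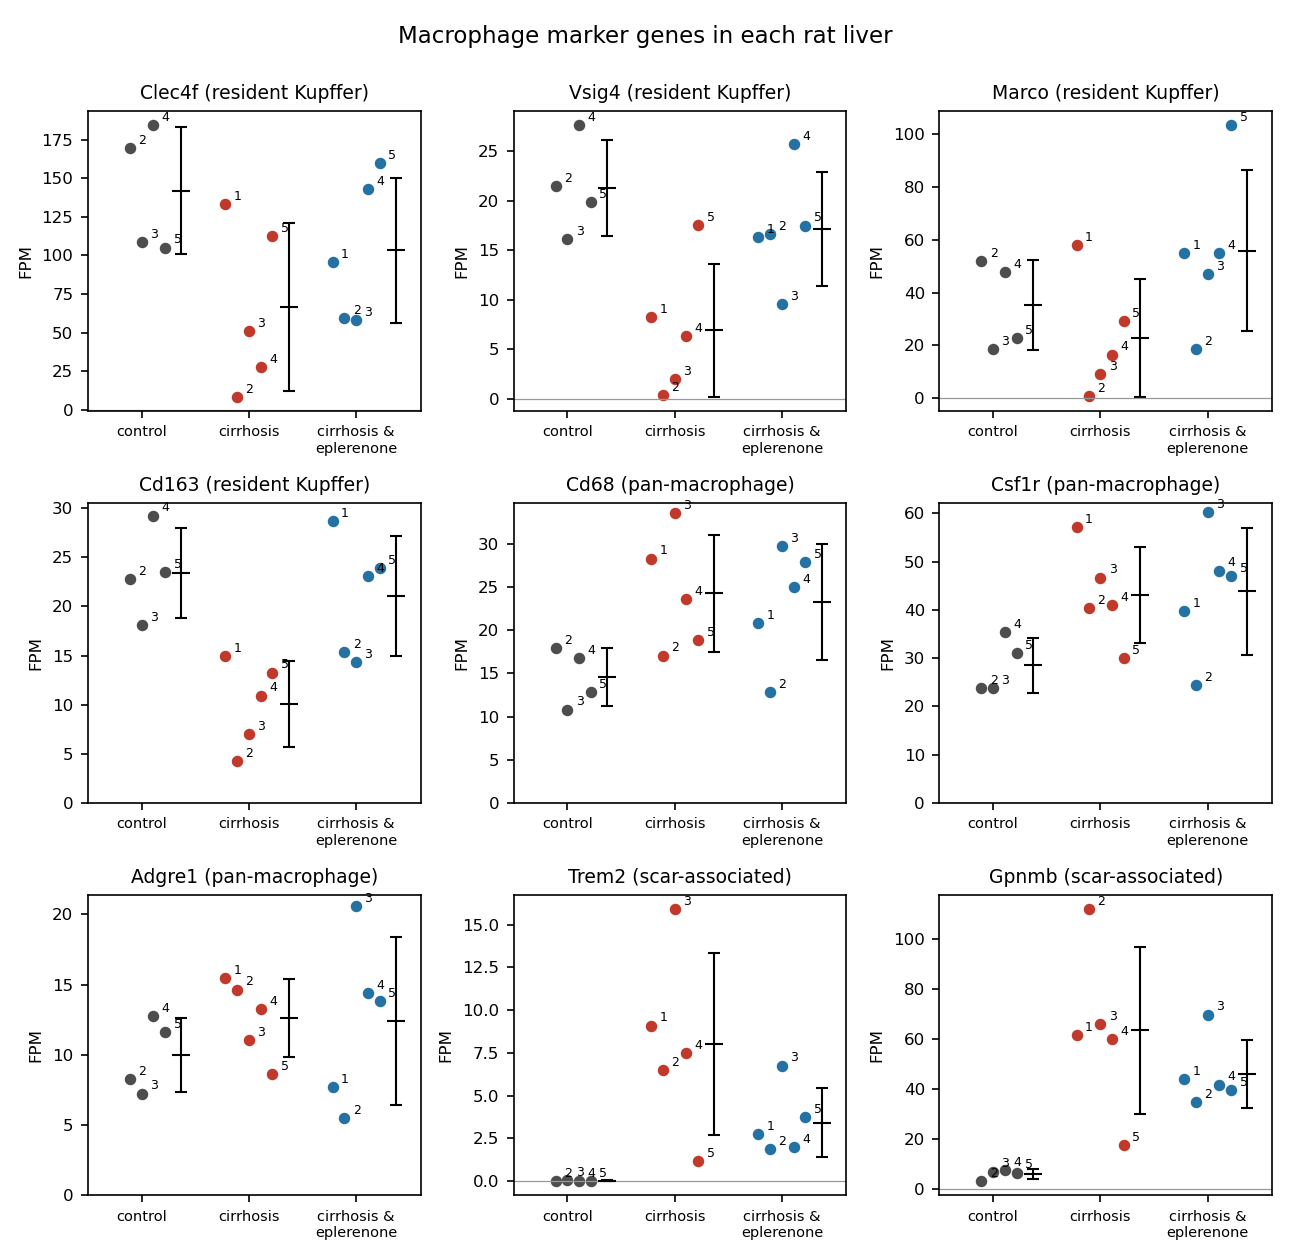
Level (FPM, linear axis) of the 9 markers in each rat liver by group. Points are rats with their replicate number, and the black bar beside each group is its mean ± SD. Trem2 lies at or near 0 in the 4 controls and between 1.19 and 15.9 FPM in cirrhosis, whereas the Kupffer markers of cirrhosis spread from the lowest level of all rats (replicate 2) up to control levels or near them.

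Trem2 (ENSRNOG00000013578, chromosome 9) was almost not detected in control livers, with 0, 1, 0 and 0 counts in replicates 2 to 5. The 5 livers with cirrhosis had 164, 159, 295, 146 and 20 counts, or 9.10, 6.49, 15.9, 7.49 and 1.19 FPM. Those with cirrhosis & eplerenone had 54, 30, 167, 35 and 69 counts, or 2.76, 1.88, 6.76, 1.98 and 3.77 FPM. Every CCl4-treated liver was thus above every control, and replicate 5 was the lowest of its group in cirrhosis and replicate 3 the highest with eplerenone. Over the summed counts, Trem2 was 531-fold higher in cirrhosis than in control (95% counting interval 95.1 to 21007) and 243-fold higher in cirrhosis & eplerenone (43.4 to 9636). These intervals cover counting error only. The edgeR log2FC was 8.52 ± 1.00 (SE, FDR = 0.000458) and 7.30 ± 1.00 (FDR = 0.00279), and with 1 count in the controls it depends on the small prior count that the fit adds. Without control replicate 3, which held that count, it was 10.23 and 9.01.

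Gpnmb (ENSRNOG00000008816, chromosome 4) encodes a transmembrane glycoprotein of phagocytic and lysosome-rich cells. Control livers had 3.02, 6.94, 7.51 and 6.55 FPM. Livers with cirrhosis had 61.4, 112, 66.0, 59.7 and 17.6 FPM. With eplerenone the values were 44.0, 34.8, 69.7, 41.7 and 39.6 FPM. The lowest CCl4-treated liver, replicate 5 of cirrhosis, lay well above the highest control. Gpnmb rose by a log2FC of 3.40 ± 0.44 (SE, FDR = 0.000528) in cirrhosis and of 2.93 ± 0.43 (FDR = 0.00313) in cirrhosis & eplerenone, which is 10.5-fold (95% interval 5.52 to 20.1) and 7.65-fold (4.06 to 14.4). Both markers remained called when any 1 of the 14 libraries was left out. Levels of the groups did not overlap for these 2 markers in either comparison, as for 11.5% of all genes tested in the upward direction in cirrhosis and 6.7% in cirrhosis & eplerenone.

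Eplerenone left both scar-associated markers above control. Trem2 was lower in cirrhosis & eplerenone than in cirrhosis by a log2FC of -1.22 ± 0.52 (FDR = 0.325, 95% interval -2.33 to -0.11), and Gpnmb by -0.46 ± 0.36 (FDR = 0.517, 95% interval -1.23 to 0.30). Neither difference was called, and the ranges of the groups overlapped for both genes. The log2FC of Gpnmb was -0.16 without cirrhosis replicate 2 and -0.70 without cirrhosis replicate 5. With 1 library left out, that of Trem2 ranged from -1.65 (without cirrhosis & eplerenone replicate 3) to -0.82 (without cirrhosis replicate 3).

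The start regions of both genes and of Cd163, the only marker called lower, are shown because these 3 genes carried the calls. They are the 250 bases before the RefSeq gene start in build GRCr8, read 5′ to 3′ on the strand of the gene, and capitals mark a match to 1 of 3 short motifs on either strand.
Trem2, chr9:20151780-20152029, minus strand: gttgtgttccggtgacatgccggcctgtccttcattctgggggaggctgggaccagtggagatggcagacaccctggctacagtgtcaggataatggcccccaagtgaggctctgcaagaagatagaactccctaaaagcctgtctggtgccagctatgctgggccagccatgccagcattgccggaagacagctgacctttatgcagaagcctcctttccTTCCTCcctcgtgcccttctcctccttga
Gpnmb, chr4:79340878-79341127, plus strand: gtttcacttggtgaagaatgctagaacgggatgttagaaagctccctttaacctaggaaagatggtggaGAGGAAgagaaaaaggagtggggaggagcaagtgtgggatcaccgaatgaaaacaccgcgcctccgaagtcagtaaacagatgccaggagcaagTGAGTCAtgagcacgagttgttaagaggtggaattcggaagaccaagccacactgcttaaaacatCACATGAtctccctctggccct
Cd163, chr4:158770524-158770773, plus strand: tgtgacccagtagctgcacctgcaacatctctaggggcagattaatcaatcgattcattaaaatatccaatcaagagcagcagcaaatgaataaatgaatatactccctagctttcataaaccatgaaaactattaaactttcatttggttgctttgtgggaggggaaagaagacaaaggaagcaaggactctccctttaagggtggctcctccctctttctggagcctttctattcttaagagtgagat

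The motifs were GAGGAA, the core bound by the macrophage factor PU.1 and other ETS factors, TGACTCA, an AP-1 element, and TCATGTG, the M-box of MITF and TFE factors. They do not overlap each other in these 3 sequences, and they were picked with the results known. Gpnmb held all 3, with the M-box 22 bases, the AP-1 element 87 bases and the ETS core 181 bases before the start. Trem2 held the ETS core 29 bases before the start, and none of the 3 motifs was found in this window of Cd163. Among the 10 markers, Timd4 included, 6 held GAGGAA (Marco, Cd68, Csf1r, Adgre1, Trem2 and Gpnmb), 2 held TGACTCA (Cd68 and Gpnmb) and 1 held TCATGTG. Of 33469 promoters of the same length, 23.3% held GAGGAA, 4.05% TGACTCA and 3.07% TCATGTG. A match is a run of letters and was not tested for binding.

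Of the resident Kupffer markers, Cd163 (ENSRNOG00000010253, chromosome 4), the scavenger receptor for haemoglobin bound to haptoglobin, was lower in cirrhosis. Control livers had 22.8, 18.1, 29.2 and 23.5 FPM, and livers with cirrhosis 14.9, 4.24, 7.01, 10.9 and 13.3 FPM. With eplerenone, Cd163 reached 28.7, 15.3, 14.3, 23.1 and 23.9 FPM. Every liver with cirrhosis lay below every control, whereas the eplerenone group overlapped both. Cd163 fell by 1.22 ± 0.31 on the log2 scale (FDR = 0.0163, DESeq2 FDR = 0.0028), and 9.07% of all genes tested had cirrhosis below control with no overlap. In cirrhosis & eplerenone against control the log2FC was -0.15 ± 0.31 (95% interval -0.82 to 0.51, FDR = 0.848), and the share of genes with no overlap was 4.39% in the downward direction. Cd163 was the only marker that met the definition of an eplerenone sensitive gene, which asks for a call with an absolute log2FC of at least 1 in cirrhosis, and for no call and an absolute log2FC of at most 1 in cirrhosis & eplerenone, and which 4.89% of all genes tested met. Without control replicate 4, Cd163 missed the threshold (log2FC -1.10, FDR = 0.0501) and no marker met the definition, and with total counts as library sizes its log2FC was -0.94, short of the limit of 1.

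Vsig4 (ENSRNOG00000038132, chromosome X), a receptor for complement C3 fragments, showed the same order of groups with a wider spread. Control livers had 21.5, 16.1, 27.7 and 19.8 FPM, and livers with cirrhosis 8.21, 0.408, 2.00, 6.36 and 17.6 FPM. The eplerenone group had 16.3, 16.6, 9.59, 25.7 and 17.5 FPM. In cirrhosis, 4 of 5 livers lay below all controls and replicate 5 lay among them. The log2FC between cirrhosis and control was -1.63 ± 0.62 (FDR = 0.0732, DESeq2 FDR = 0.0336), so Vsig4 was not called. Without cirrhosis replicate 5 it was called at -2.33 (FDR = 0.00901), and without cirrhosis replicate 2 the log2FC was -1.32, with no call. Limma voom with sample weights called Vsig4 with all rats, at -2.69 (FDR = 0.00341), but that fit called 5233 genes of the whole table, against 2802 in the main fit.

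Clec4f (ENSRNOG00000013137, chromosome 4), a galactose-binding lectin particular to Kupffer cells in rodents, was not called in any comparison. Control livers had 169, 108, 185 and 105 FPM, and livers with cirrhosis 133, 8.08, 50.8, 27.7 and 113 FPM. The eplerenone group had 95.6, 59.4, 58.2, 143 and 160 FPM. Replicates 1 and 5 of cirrhosis lay within the control range and the other 3 below it. The log2FC between cirrhosis and control was -1.09 ± 0.57 (95% interval -2.31 to 0.12, FDR = 0.172). It was -0.80 without cirrhosis replicate 2 and -1.49 without cirrhosis replicate 1, and no fit with 1 library left out called Clec4f. Limma voom with sample weights called it (-1.69, FDR = 0.021), in a fit that called 5233 genes of the whole table.

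Marco, a scavenger receptor for bacteria and particles, was matched by its symbol to ENSRNOG00000049303 on chromosome 16 of the count table, while RefSeq places Marco on chromosome 13 in GRCr8. The other 8 markers lie on the same chromosome in both, so the identity of this row rests on its symbol alone. Its levels were 51.8, 18.7, 47.7 and 22.9 FPM in control and 57.9, 0.734, 9.12, 16.5 and 29.2 FPM in cirrhosis. In the eplerenone group they were 55.0, 18.6, 46.9, 55.0 and 103 FPM. The groups overlapped widely, from a liver with cirrhosis above all controls (replicate 1) to one at 0.734 FPM (replicate 2), and the log2FC was -0.64 ± 0.73 in cirrhosis (FDR = 0.532) and 0.66 ± 0.74 in cirrhosis & eplerenone (FDR = 0.688). In cirrhosis it was -0.32 without cirrhosis replicate 2 and -1.33 without cirrhosis replicate 1, and in cirrhosis & eplerenone 0.32 without replicate 5 of that group, with no call.

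The 4 resident Kupffer markers had a negative log2FC between cirrhosis and control, with a median of -1.16 beside -0.01 over all genes tested. Between cirrhosis & eplerenone and cirrhosis the 4 log2FC were positive, with a median of 1.18 beside 0.01 over all genes. Both comparisons use the same cirrhosis livers, so low levels there push the signs apart. The 4 markers also varied together between rats, so they are not 4 separate observations. In that comparison Cd163 was higher by 1.07 ± 0.30 (FDR = 0.312), Vsig4 by 1.32 ± 0.60 (FDR = 0.335), Marco by 1.30 ± 0.70 (FDR = 0.38) and Clec4f by 0.63 ± 0.54 (FDR = 0.553). None passed the threshold, and DESeq2 called none of the 9 markers either. With 1 library left out, the log2FC of Vsig4 ranged from 1.01 (without cirrhosis replicate 2) to 2.02 (without cirrhosis replicate 5, FDR = 0.0836), that of Marco from 0.96 (without cirrhosis & eplerenone replicate 5) to 2.01 (without cirrhosis replicate 1), and that of Clec4f from 0.35 (without cirrhosis replicate 2) to 1.05 (without cirrhosis replicate 1), with no call. At an unadjusted p below 0.05, 2 of the 9 markers were higher and 1, Trem2, was lower, beside 6.84% of all genes higher and 7.62% lower. The spread within cirrhosis was wide, with a coefficient of variation of 81.5% for Clec4f, 97.6% for Vsig4 and 98.2% for Marco, against 29.0%, 22.6% and 47.9% in control.

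Calls between the CCl4-treated groups appeared when 2 rats were left out, replicate 5 of cirrhosis and replicate 3 of cirrhosis & eplerenone, to give groups of 4 rats. A gene list of the study seems to use these groups. Replicate 5 had the lowest Trem2 and Gpnmb of the cirrhosis group, and replicate 3 had the highest Trem2 and Gpnmb and the lowest Vsig4 and Cd163 of the eplerenone group, so each lay towards the other group. With both left out, Vsig4 (log2FC 2.16, FDR = 0.037) and Cd163 (1.28, FDR = 0.0318) were called higher and Trem2 (-1.92, FDR = 0.0184) and Gpnmb (-0.92, FDR = 0.0447) lower in cirrhosis & eplerenone than in cirrhosis. In this fit 1235 of 14126 genes were called, against 2 genes with all rats. Leaving out rats that lie towards the other group widens these differences by itself, so these calls are no independent support.

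**Figure D2:**
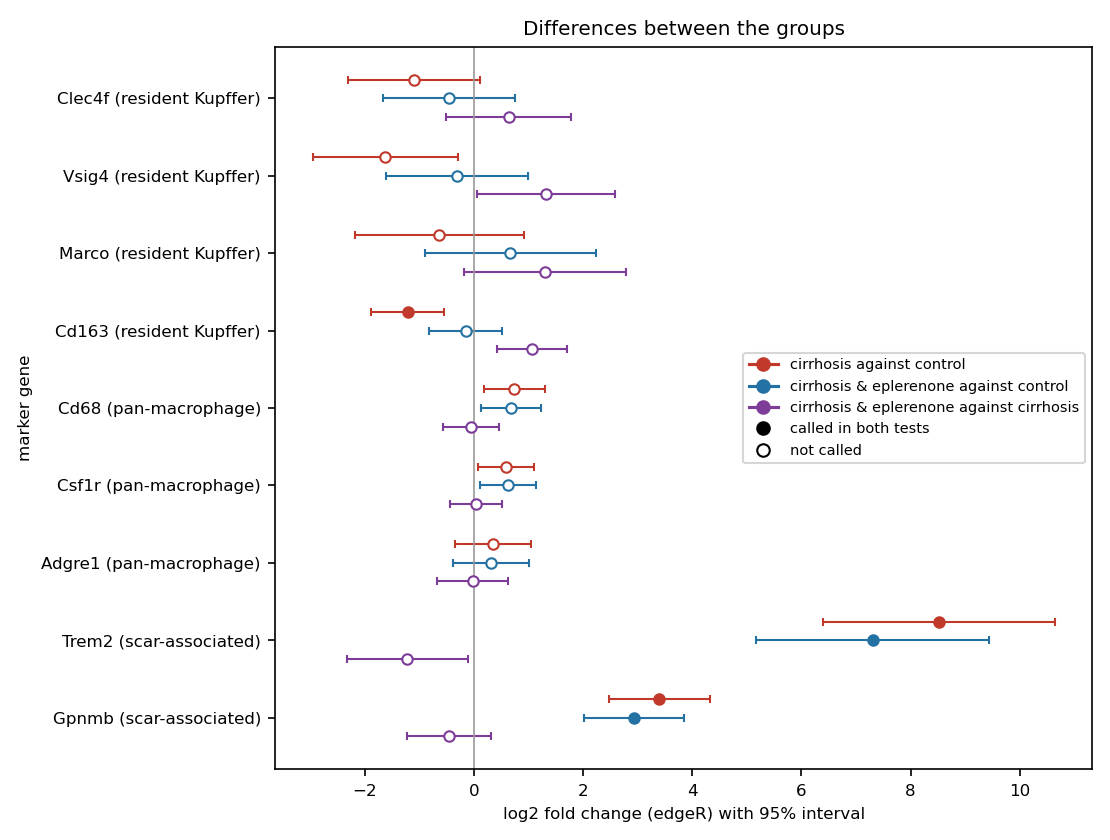
The log2 fold change (edgeR) with its 95% interval for the 9 markers in each of the 3 comparisons. Filled points were called in both tests. Trem2 and Gpnmb stand far to the right of 0 against control, Cd163 is the only marker called lower, and no marker was called between cirrhosis & eplerenone and cirrhosis.

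The pan-macrophage markers were higher on average in both CCl4-treated groups, without a call. Cd68 (ENSRNOG00000037563, chromosome 10), a lysosomal glycoprotein of phagocytes, had 17.9, 10.8, 16.7 and 12.8 FPM in control. It had 28.3, 17.1, 33.6, 23.6 and 18.9 FPM in cirrhosis and 20.8, 12.8, 29.7, 25.0 and 27.9 FPM with eplerenone. In cirrhosis only replicate 2 lay within the control range. The log2FC was 0.74 ± 0.26 in cirrhosis (FDR = 0.0573, DESeq2 FDR = 0.0292) and 0.68 ± 0.26 in cirrhosis & eplerenone (FDR = 0.148). Cd68 lay so near the threshold that leaving out 1 of several libraries called it in cirrhosis, namely cirrhosis replicate 2 (0.84, FDR = 0.0387) or 5 (0.82, FDR = 0.033), or cirrhosis & eplerenone replicate 2 (0.74, FDR = 0.0313) or 3 (0.76, FDR = 0.0473). Without cirrhosis & eplerenone replicate 2 it was also called in that group against control (0.83, FDR = 0.04).

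Csf1r (ENSRNOG00000018414, chromosome 18) encodes the receptor on which macrophages depend. It had 23.8, 23.8, 35.5 and 31.0 FPM in control, 57.2, 40.4, 46.7, 41.0 and 30.0 FPM in cirrhosis, and 39.7, 24.4, 60.2, 48.1 and 47.1 FPM with eplerenone. Only replicate 5 of cirrhosis and replicate 2 of cirrhosis & eplerenone lay within the control range. The log2FC was 0.59 ± 0.24 in cirrhosis (FDR = 0.0887) and 0.62 ± 0.24 in cirrhosis & eplerenone (FDR = 0.151). Csf1r was called in cirrhosis without cirrhosis replicate 5 (0.70, FDR = 0.038) or without cirrhosis & eplerenone replicate 2 (0.59, FDR = 0.0481), and in cirrhosis & eplerenone without the latter (0.77, FDR = 0.0344).

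Adgre1 (ENSRNOG00000046254, chromosome 9), which encodes the F4/80 antigen, had 8.26, 7.23, 12.8 and 11.6 FPM in control. In cirrhosis it had 15.5, 14.6, 11.1, 13.3 and 8.63 FPM and with eplerenone 7.67, 5.51, 20.6, 14.4 and 13.8 FPM. The 3 groups overlapped, with the lowest and the highest liver of all 14 both in the eplerenone group. The log2FC was 0.34 ± 0.33 in cirrhosis (FDR = 0.457) and 0.32 ± 0.33 in cirrhosis & eplerenone (FDR = 0.662). For the effect of eplerenone in CCl4-treated rats, the 95% intervals of the log2FC were -0.57 to 0.45 for Cd68, -0.45 to 0.51 for Csf1r and -0.68 to 0.63 for Adgre1.

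The markers were also read per Cd68 count of the same library, a ratio that does not depend on library scaling. Controls had 8.22 or more Clec4f counts per Cd68 count, against 0.474 to 5.98 in cirrhosis and 1.96 to 5.73 with eplerenone, so both CCl4-treated groups lay below all controls. Cd163 per Cd68 count was 1.27 to 1.84, 0.209 to 0.703 and 0.482 to 1.38, and Vsig4 per Cd68 count 1.20 to 1.65, 0.0239 to 0.931 and 0.323 to 1.30, in the same order of groups. Marco overlapped control in both. Of the 8 other markers, 3 lay below all controls in cirrhosis (Clec4f, Vsig4 and Cd163) and 1 in cirrhosis & eplerenone (Clec4f), while 2 (Trem2 and Gpnmb) lay above in both. Cd68 itself had a positive log2FC in both groups, and such ratios lay below control without overlap for 24.1% of all genes in cirrhosis and 6.55% in cirrhosis & eplerenone, and above for 4.68% and 2.4%. Controls had at most 0.642 Gpnmb counts per Cd68 count, while livers with cirrhosis had 0.934 to 6.56 and those with eplerenone 1.42 to 2.71.

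**Figure D3:**
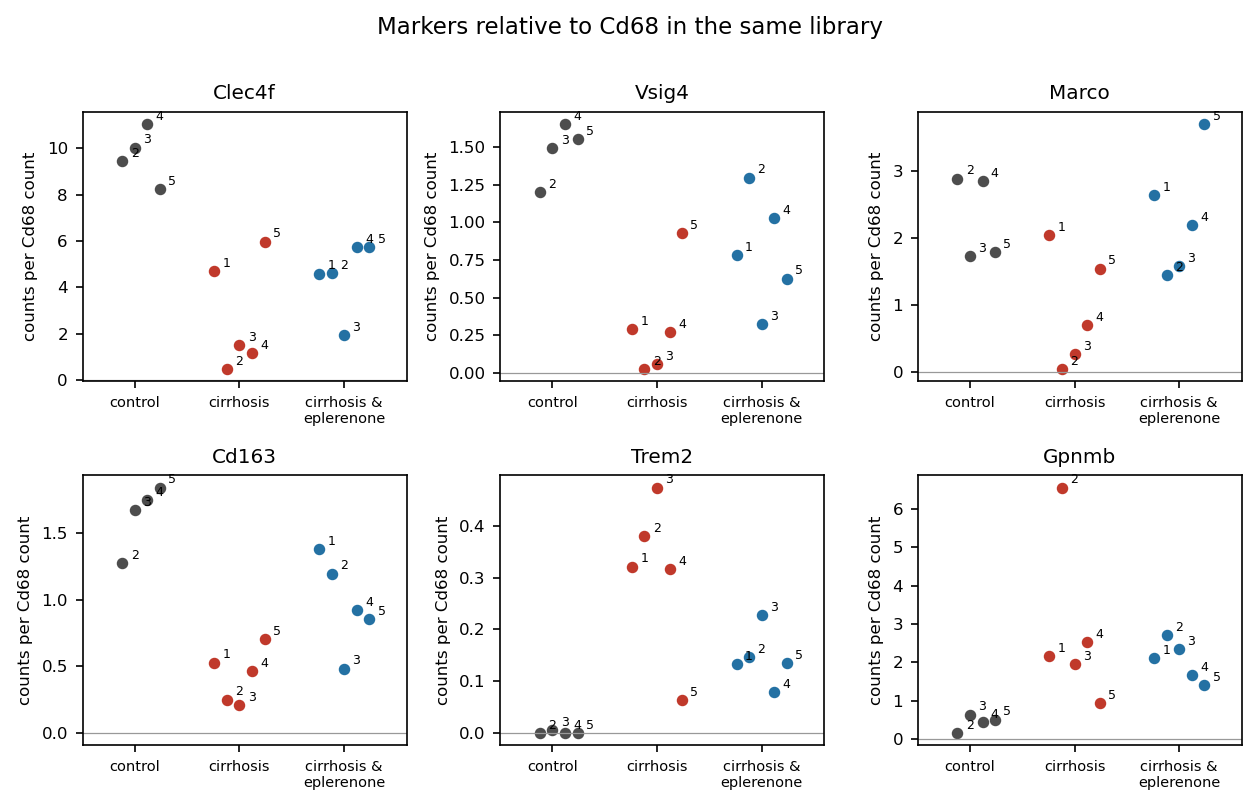
Counts of 6 markers per Cd68 count of the same library (linear axes), with each rat as a point and its replicate number. Clec4f lies at 8.22 or more in control and at 5.98 or less in every CCl4-treated rat, while Trem2 and Gpnmb lie above all controls in both groups.

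Within groups, markers of the same kind varied together, while r between kinds was lower or negative for many pairs. After each group was centred on its mean log2 level, the resident Kupffer markers correlated with each other over the 14 livers at r = 0.81 (Vsig4 and Marco) to 0.91 (Clec4f and Marco). Trem2 and Gpnmb correlated at r = 0.73, and Csf1r and Adgre1 at 0.90. With Gpnmb, r was -0.76 for Vsig4, -0.61 for Clec4f, -0.52 for Cd163 and -0.51 for Marco, and replicate 2 of cirrhosis lay at the far end. With Trem2 it was -0.58 for Vsig4, -0.33 for Cd163, -0.24 for Clec4f and -0.085 for Marco. Between Kupffer and pan-macrophage markers, r ranged from -0.19 (Vsig4 and Adgre1) to 0.56 (Marco and Cd68). Between pan-macrophage and scar-associated markers it ranged from 0.12 (Cd68 and Gpnmb) to 0.64 (Csf1r and Trem2). The mean log2 level of the 4 Kupffer markers ranged from 4.83 to 5.71 among controls, from 1.38 to 5.00 among livers with cirrhosis and from 4.56 to 5.70 with eplerenone. These correlations share libraries and their scaling and are given as a description.

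**Figure D4:**
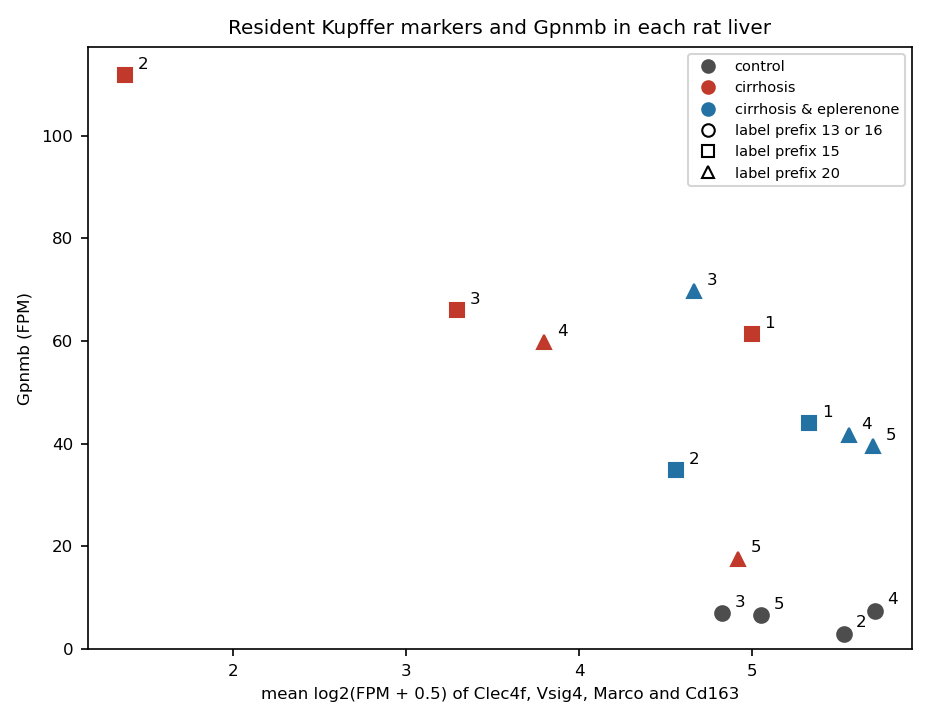
Mean log2(FPM + 0.5) of Clec4f, Vsig4, Marco and Cd163 against the level of Gpnmb (FPM, linear axis) in each rat liver, with replicate numbers, group by colour and the number that starts the animal label by symbol. Replicate 2 of cirrhosis has the lowest Kupffer mean (1.38) and the highest Gpnmb (112 FPM), and the controls lie at the lower right.

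By the same group-centred r over the 14 livers, the 3 nearest genes of each marker were read. They are the top of a ranking of all protein coding genes with a mean of at least 1 FPM, which by itself favours a high r. Without centring, r was lower for some pairs, as for Vsig4 and Vnn1 (0.49), and higher for others, as for Gpnmb and Lamb1 (0.96). Marco was nearest to Cd5l (r = 0.98), a secreted scavenger receptor protein of Kupffer cells, then to the chemokine gene Ccl6 (0.96) and to Clec4f. Clec4f was nearest to Cd5l (0.93), Clec4g (0.93), a lectin of sinusoidal endothelium, and Hmg20b (0.93), and Cd163 to LOC103689942 (0.89), Ccl6 (0.88) and Marco. Vsig4 was nearest to Csad (0.94), Tor1a (0.90) and Vnn1 (0.87). Cd68 was nearest to Arhgap9 (0.94), Zfp133 (0.94) and LOC100360573 (0.94), Csf1r to Map4k4 (0.95), Was (0.92) and Pld4 (0.92), and Adgre1 to Ifi47 (0.92), Csf1r and Dysf (0.89). Trem2 was nearest to LOC100912034, Fxyd6 and Mustn1 (each 0.96), and Gpnmb to Itm2a (0.93), the laminin gene Lamb1 (0.93) and LOC102553715 (0.91).

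The animal labels start with a number whose meaning is not stated, 13 or 16 for controls and 15 or 20 for CCl4-treated rats, so this number and CCl4 cannot be told apart. Among CCl4-treated rats, number 15 stands for 3 with cirrhosis and 2 with eplerenone and number 20 for 2 and 3. The difference of log2 level between cirrhosis & eplerenone and cirrhosis was positive within both numbers for the Kupffer markers, at 0.96 and 0.97 for Clec4f, 2.65 and 0.60 for Vsig4, 1.88 and 1.53 for Marco and 1.39 and 0.70 for Cd163. For the other markers it had opposite signs within 15 and 20, at -1.89 and 0.21 for Trem2, -0.96 and 0.57 for Gpnmb, -0.62 and 0.37 for Cd68, -0.60 and 0.55 for Csf1r and -1.01 and 0.56 for Adgre1. A test of the interaction gave an FDR of 0.358 or more for the 9 markers and below 0.05 for 0 genes of the table, with the lowest FDR of the 9 for Adgre1.

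Further genes linked to macrophages were read from lists chosen by function, with results of these data known. In whole liver RNA, a change in these genes cannot be assigned to macrophages. Of 12 further Kupffer cell genes, 1 rose in cirrhosis and none fell, a share of rises below the 13.8% of all genes. The gene was Spic, a transcription factor of red pulp and iron-handling macrophages, at 0.380 ± 0.231 FPM (SD, n = 4) in control and 1.94 ± 0.627 FPM (SD, n = 5) in cirrhosis (log2FC 2.33 ± 0.73, FDR = 0.0369). The median log2FC of the 12 was 0.23, and none was called in cirrhosis & eplerenone. Cd5l, the nearest gene to Marco, had a log2FC of -0.35 ± 0.47 in cirrhosis (FDR = 0.605).

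Of 13 further myeloid genes, 9 rose in cirrhosis, 1 fell and 3 were not called, with a median log2FC of 1.16. The largest rises were in the lysozyme gene Lyz2 (3.33 ± 0.56, FDR = 0.00182), Tyrobp (2.07 ± 0.41, FDR = 0.00408), the lysosomal Laptm5 (1.81 ± 0.34, FDR = 0.00325) and the Fc receptor gamma chain Fcer1g (1.66 ± 0.37, FDR = 0.00751). The gene that fell, named after its value was seen, was Cd14 (-1.26 ± 0.40, FDR = 0.038), the coreceptor for lipopolysaccharide. In cirrhosis & eplerenone 2 of the 13 were called higher, among them Lyz2 (2.79 ± 0.54, FDR = 0.0103), and 0 lower. The shares of all genes called higher were 13.8% in cirrhosis and 4.5% in cirrhosis & eplerenone, so these counts are not directly comparable. Against control, the median log2FC of the 13 was 0.90 with eplerenone, with 12 positive, against 11 positive in cirrhosis. Cd14 had a log2FC of -1.34 ± 0.40 (FDR = 0.0655) with eplerenone, without a call.

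Of 12 further scar-associated and lipid-associated macrophage genes, 7 rose in cirrhosis and 1 fell, with a median log2FC of 2.53. Mmp12, a macrophage elastase, rose from 0.398 ± 0.448 FPM (SD, n = 4) to 18.4 ± 13.1 FPM (SD, n = 5), a log2FC of 5.48 ± 0.82 (FDR = 0.00116). The tetraspanin gene Cd9 (3.61 ± 0.69, FDR = 0.00366), the lipoprotein lipase gene Lpl (3.21 ± 0.59, FDR = 0.00294) and the integrin gene Itgax (3.11 ± 0.51, FDR = 0.00164) followed. Plin2, a lipid droplet protein gene that hepatocytes also express and that is named after its value was seen, fell by 1.41 ± 0.37 on the log2 scale (FDR = 0.0179). In cirrhosis & eplerenone 5 of the 12 were called higher, among them Mmp12 (4.69 ± 0.80, FDR = 0.00556), Itgax (2.50 ± 0.50, FDR = 0.0114), Lpl (2.56 ± 0.57, FDR = 0.0188) and Cd9 (2.64 ± 0.67, FDR = 0.0324). The median log2FC of the 12 was 1.46 in that comparison.

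Of 6 monocyte and recruitment genes tested, 5 rose in cirrhosis and 3 in cirrhosis & eplerenone, with median log2FC of 3.44 and 2.87. The calcium-binding protein genes S100a8 (3.80 ± 0.98, FDR = 0.0159) and S100a9 (3.21 ± 0.90, FDR = 0.0233), which neutrophils also express, and the chemokine genes Ccl2 (3.74 ± 0.86, FDR = 0.00919) and Cx3cl1 (3.67 ± 0.47, FDR = 0.000528) had the largest log2FC in cirrhosis. Cx3cl1 was also called with eplerenone (2.87 ± 0.46, FDR = 0.0041), while Ccl2 was not (2.86 ± 0.85, FDR = 0.0641).

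Of 7 genes for CSF1 receptor ligands and TREM2 signalling, 5 rose in cirrhosis and none was called in cirrhosis & eplerenone, with medians of 0.90 and 0.82. The adaptor gene Hcst (2.14 ± 0.53, FDR = 0.0131), Tyrobp, the kinase gene Syk (1.15 ± 0.27, FDR = 0.00968) and the ligand gene Csf1 (0.90 ± 0.28, FDR = 0.0341) rose, as did Il34 (0.87 ± 0.28, FDR = 0.0427), named after its value was seen. In cirrhosis & eplerenone, Tyrobp had a log2FC of 1.18 ± 0.40 (FDR = 0.0971), Csf1 of 0.82 ± 0.28 (FDR = 0.0978) and Syk of 0.92 ± 0.27 (FDR = 0.0572). No gene of these 5 lists was called between cirrhosis & eplerenone and cirrhosis.

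**Figure D5:**
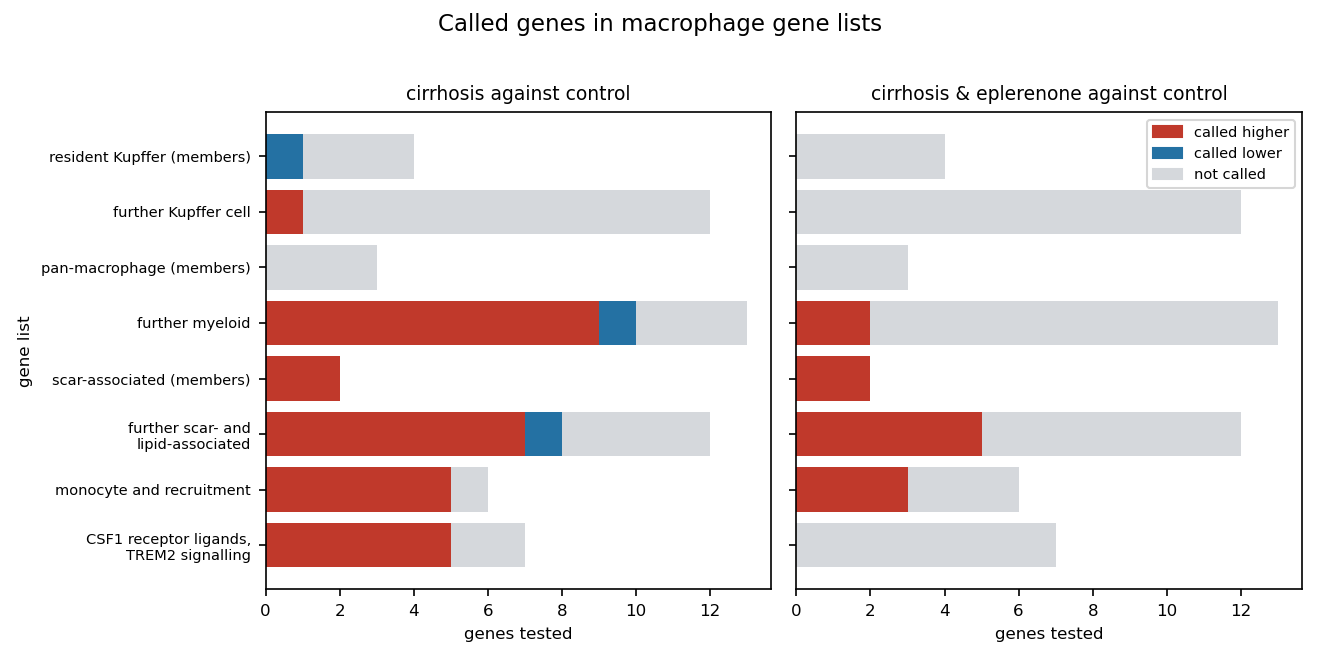
Number of genes tested (linear axis) in each macrophage gene list, split into called higher, called lower and not called, for cirrhosis against control (left) and cirrhosis & eplerenone against control (right). In cirrhosis 7 of 12 further scar-associated, 9 of 13 myeloid and 5 of 6 monocyte genes were called higher, against 5, 2 and 3 with eplerenone, while 1 of 4 resident Kupffer markers was called lower in cirrhosis and none with eplerenone. Of all genes tested, 13.8% were called higher and 6.72% lower in cirrhosis, against 4.5% and 0.829% with eplerenone. Counts of the 2 panels are thus not directly comparable, and no gene shown was called between the CCl4-treated groups.

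Markers of other liver cells moved beside these genes, and their part in the results was not tested. Of 6 sinusoidal endothelial markers, 3 fell in cirrhosis, namely Fcgr2b (-1.52 ± 0.26, FDR = 0.00194), Oit3 (-1.29 ± 0.23, FDR = 0.00262) and Stab1 (-0.64 ± 0.19, FDR = 0.032), and the summed level of the list ranged from 211 to 266 FPM among controls, from 62.6 to 211 FPM with cirrhosis and from 153 to 211 FPM with eplerenone. Stab2, Lyve1 and Clec4g were not called, and none of the 6 was at 0. Of 4 cholangiocyte markers, 4 rose in cirrhosis, with a summed level of 12.2 to 18.4 FPM in control, 37.4 to 88.4 FPM in cirrhosis and 32.0 to 75.9 FPM with eplerenone. Cholangiocytes also express Cd9 and Spp1, so these 2 list genes are not particular to macrophages. Which cells gave rise to the levels of the other list genes was not tested. In cirrhosis, 3 of 5 stellate cell and myofibroblast markers and 3 of 5 lymphocyte markers rose. So did 3 of 3 neutrophil markers and 1 of 4 dendritic cell markers, while none of 6 hepatocyte and none of 2 red cell markers was called. The neutrophil markers include S100a8 and S100a9, which also stand in the monocyte and recruitment list, and Mpo and Cxcr2 did not pass the filter. Of all genes tested, 13.8% were called higher and 6.72% lower in cirrhosis. The summed lymphocyte markers reached 2.20 to 3.98 FPM in control and 4.52 to 11.9 FPM in cirrhosis, and the T cell gene Cd3e was at 0 in part of the controls.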

How the data were processed

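The authors sequenced poly(A) RNA of rat liver, mapped the reads to rn6 with HISAT2 2.1.0 and made exon counts with featureCounts, multi-mapping reads included. The strand setting is not given in the sources used here. The deposited table holds raw counts per gene, with no normalization, for 14 of 15 labelled samples. Control replicate 1 was not analysed here. The paper excluded 1 control that differed from the other 4 in principal component analysis, without giving its replicate number. Leaving out such a control can narrow the control range. Groups and replicate numbers were taken from the sample labels, each sample being a different rat.

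Genes were filtered with filterByExpr (minimum count 10) with TMM library sizes. A joint model of the 3 groups was fitted in edgeR 4.0.16 and DESeq2 1.42.0 (R 4.3.3), and p was adjusted by Benjamini-Hochberg over the 14417 genes tested. Correlations used log2(FPM + 0.5). The steps were tested on simulated data. The members and lists were chosen with earlier results of these data known. All members were named, with up to 4 called genes of each further list by absolute log2FC in cirrhosis, defining genes of other cell types that moved beside them, and the 3 protein coding genes with a mean of at least 1 FPM whose group-centred levels correlated best with each member. Alternatives changed the library sizes, filter, test (limma 3.58.1), samples, adjustment, replicate block and label prefix. Values within the label prefix and per Cd68 count were added after seeing the data. No genome of the build of the counts was used, and promoter sequences came from RefSeq (GRCr8).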

Additional observations from a re-analysis of the deposited data

Results flagged for a closer look

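Of 27 groups of marker levels examined, 2 held a liver whose distance to its nearest neighbour took up most of the range of its group, by a criterion that chance alone meets in about 5% of groups. The first was Trem2 in control replicate 3, at 0.0578 FPM. This is 1 count, against 0 in the other 3 controls. The second was Gpnmb in cirrhosis & eplerenone replicate 3, at 69.7 FPM, against 34.8 to 44.0 FPM in the other 4 rats of its group. The same rat also had the highest Trem2 of its group, 6.76 FPM.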

How the results depend on the processing

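Trem2 and Gpnmb kept their calls against control under every alternative that tested them. Asking for 10 counts in every sample removed Trem2, which leaves 1 marker called higher in each comparison with control by construction. With limma voom and sample weights, 4 markers were called higher and 3 lower in cirrhosis. DESeq2 alone called 3 higher and 2 lower in cirrhosis, and its calls over the whole table are not given here. With 4 samples per group, 4 were called higher and 2 lower in cirrhosis, 2 higher and 2 lower between cirrhosis & eplerenone and cirrhosis, and 2 were eplerenone sensitive. With total counts as library sizes, which moved the median log2FC of all genes by about the same amount in both comparisons with control (to 0.28 in cirrhosis and 0.32 in cirrhosis & eplerenone, from -0.01 and 0.01), 0 were eplerenone sensitive. Over the whole table, calls in cirrhosis went from 2802 to 5233 with limma voom and to 4634 with 4 samples per group. In cirrhosis & eplerenone against control they went from 726 to 1228 with limma voom, to 1123 with total counts and to 371 with 10 counts in every sample. Between cirrhosis & eplerenone and cirrhosis they went from 2 to 1235 with 4 samples per group and to 0 with limma voom or the replicate block. With 1 library left out, calls over the whole table ranged from 1317 (without control replicate 5) to 4415 (without cirrhosis replicate 5) in cirrhosis, with over 1.5 times fewer also without control replicate 3 or 4 (1512 and 1724) and cirrhosis replicate 1, 3 or 4 (1803, 1691 and 1750). In cirrhosis & eplerenone against control they ranged from 208 (without control replicate 5) to 1235 (without cirrhosis & eplerenone replicate 2), with 298, 396 and 401 without control replicate 3, 2 and 4, and 360 without cirrhosis & eplerenone replicate 3. Between cirrhosis & eplerenone and cirrhosis they ranged from 0 to 25 (without cirrhosis replicate 5). The cause of these differences was not tested.

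With 1 library left out, 2 to 4 markers were called higher and 0 to 2 lower in cirrhosis, 2 to 4 higher in cirrhosis & eplerenone against control, and 0 to 2 were eplerenone sensitive. Signs changed only for values near 0. Between cirrhosis & eplerenone and cirrhosis, Adgre1 had a log2FC of 0.059 and Cd68 of 0.015 with total counts, and Csf1r of -0.075 with limma voom, -0.022 with the label prefix as a factor and -0.23 with 4 samples per group. With 1 library left out, Adgre1 ranged from -0.30 to 0.16, Cd68 from -0.18 to 0.092 and Csf1r from -0.13 to 0.18. Cd163 had a log2FC of 0.15 between cirrhosis & eplerenone and control with total counts.

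Same-numbered samples of different groups did not deviate together (r between -0.37 and 0.23 over 12 pairs, 4 of them above 0.1), so the numbers were not taken as a pairing. With a replicate block, 2 markers were called higher and 1 lower in cirrhosis, and Cd163 had a log2FC of -1.47 (FDR = 0.00528, edgeR). The block moved the calls of the whole table from 2802 to 1688 in cirrhosis and from 726 to 260 in cirrhosis & eplerenone against control.

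Trem2 had 1 count over all controls, so the size of its rise is poorly known, and the spread between rats adds to its counting interval.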
